A study of Mus musculus with 12 samples.

Results

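The genes described are the collagen chains of the liver together with the lysyl oxidases, the tissue inhibitors of metalloproteinases and the matrix metalloproteinases. They were chosen by symbol among the protein-coding genes of the count table. Taken were all Col chains, Lox and the Loxl genes, the Timp genes and the Mmp genes other than Mmp12. The rule itself used no measured value, but it was set with earlier results of these data known. The rule gave 66 of the 27022 genes listed, with 41 collagen chains, 5 lysyl oxidases, 4 inhibitors and 16 metalloproteinases. Another 8 genes whose symbols fit the rule, Col2a1, Col10a1, Col19a1, Mmp1b, Mmp3, Mmp10, Mmp20 and Mmp24, were not analysed here.

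Liver RNA of 6 female SJL/J mice, 11 weeks old, was used. The 3 control mice ate a purified AIN-93G diet with 50 ppm iron from their arrival at 3 weeks of age, and the 3 iron-loaded mice were moved at 6 weeks of age from that diet to the same base with 2% carbonyl iron. Each diet was given to 1 cage, so diet and cage cannot be told apart, and all mice were fasted and perfused before the liver was frozen. From each RNA, 1 whole transcript library (Trad-KAPA, KAPA Stranded mRNA-Seq) and 1 library of transcript 3' ends (3'-LEXO, Lexogen QuantSeq FWD) were made, which gave 3 libraries for each kit and diet.

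Collagens are built of 3 intertwined chains. Fibrillar collagens make the tensile fibres of portal tracts and of scars, collagen IV forms the sheet under endothelia and epithelia, and smaller collagens tie these networks to each other and to cells. Lysyl oxidases cross-link collagen, matrix metalloproteinases cut it and other proteins, and the tissue inhibitors block the metalloproteinases. In liver, stellate cells and portal fibroblasts are known as the main makers of fibrillar collagen, endothelial cells as makers of collagen IV, and hepatocytes as the main source of collagen XVIII. Iron overload is known as a setting in which fibrosis can develop.

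The libraries held 10724672 to 16553616 counts, so that 1 read was worth 0.0604 to 0.0932 CPM (counts scaled to a library total of 1000000). The 6 hepatocyte markers, led by Alb, summed to at least 45719.5 CPM in each library. In both kits, iron-loaded mice 2 and 3 were much closer in their counts to each other (chi-square per degree of freedom 5.98 in Trad-KAPA and 5.97 in 3'-LEXO) than to that of iron-loaded mouse 1 (49.5 to 59.8). Levels below are CPM as mean ± SD of 3 libraries, and fold changes are those of edgeR, iron-loaded against control, after TMM scaling. The mice of a diet were cage mates, so p-values measure the spread between mice within a cage.

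Of the 66 genes, 40 had enough reads to be tested in Trad-KAPA and 38 in 3'-LEXO, 36 in both and 42 in at least 1. In Trad-KAPA, 9 of the 40 passed the threshold (edgeR quasi-likelihood test, adjusted p under 0.05), where 17.1% of all 13151 tested genes did. Of these, the 4 genes Col4a1, Col4a2, Col13a1 and Timp3 were higher on the iron-loaded diet, where 8.77% of all tested genes were called higher, and the 5 genes Col5a1, Col5a3, Col6a2, Col15a1 and Col20a1 were lower, where 8.37% were. In 3'-LEXO, 6 of the 38 passed, where 6.10% of 13301 did: Col4a2, Col13a1, Timp3 and Mmp7 were higher (3.17% of all tested genes), and Col5a1 and Col6a3 lower (2.92%). Mmp7 is counted here although it passed the read filter only through the iron-loaded group, with at most 2 reads in a control library. Both kits called Col4a2, Col13a1 and Timp3 higher and Col5a1 lower, which is 4 of the 36 genes tested in both, where 5.23% of 12229 genes were called in the same direction in both (2.67% higher and 2.55% lower). DESeq2 called 12 of the genes in Trad-KAPA, beside 16.7% of its 14558 genes, and 9 in 3'-LEXO, beside 9.75% of 13547. With the replicate number as a block edgeR called 13 and 1, beside 14.6% and 3.28% of all tested genes. The kits share their mice, so these calls are 2 readings of the same livers. No gene of the list was called in opposite directions. In bulk RNA, fewer cells of a type and less RNA per cell cannot be told apart. The number of 3'-LEXO calls rested on single mice: without control replicate 1, 2 or 3 it was 1, 0 and 0, without iron-loaded replicate 2 it was 3 and without iron-loaded replicate 3 it was 1. The Trad-KAPA calls numbered 7 to 10 when 1 library was left out, with the same count of 4 higher each time, and the lower calls fell to 3 without control replicate 2 or iron-loaded replicate 2 or 3.

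**Figure D1:**
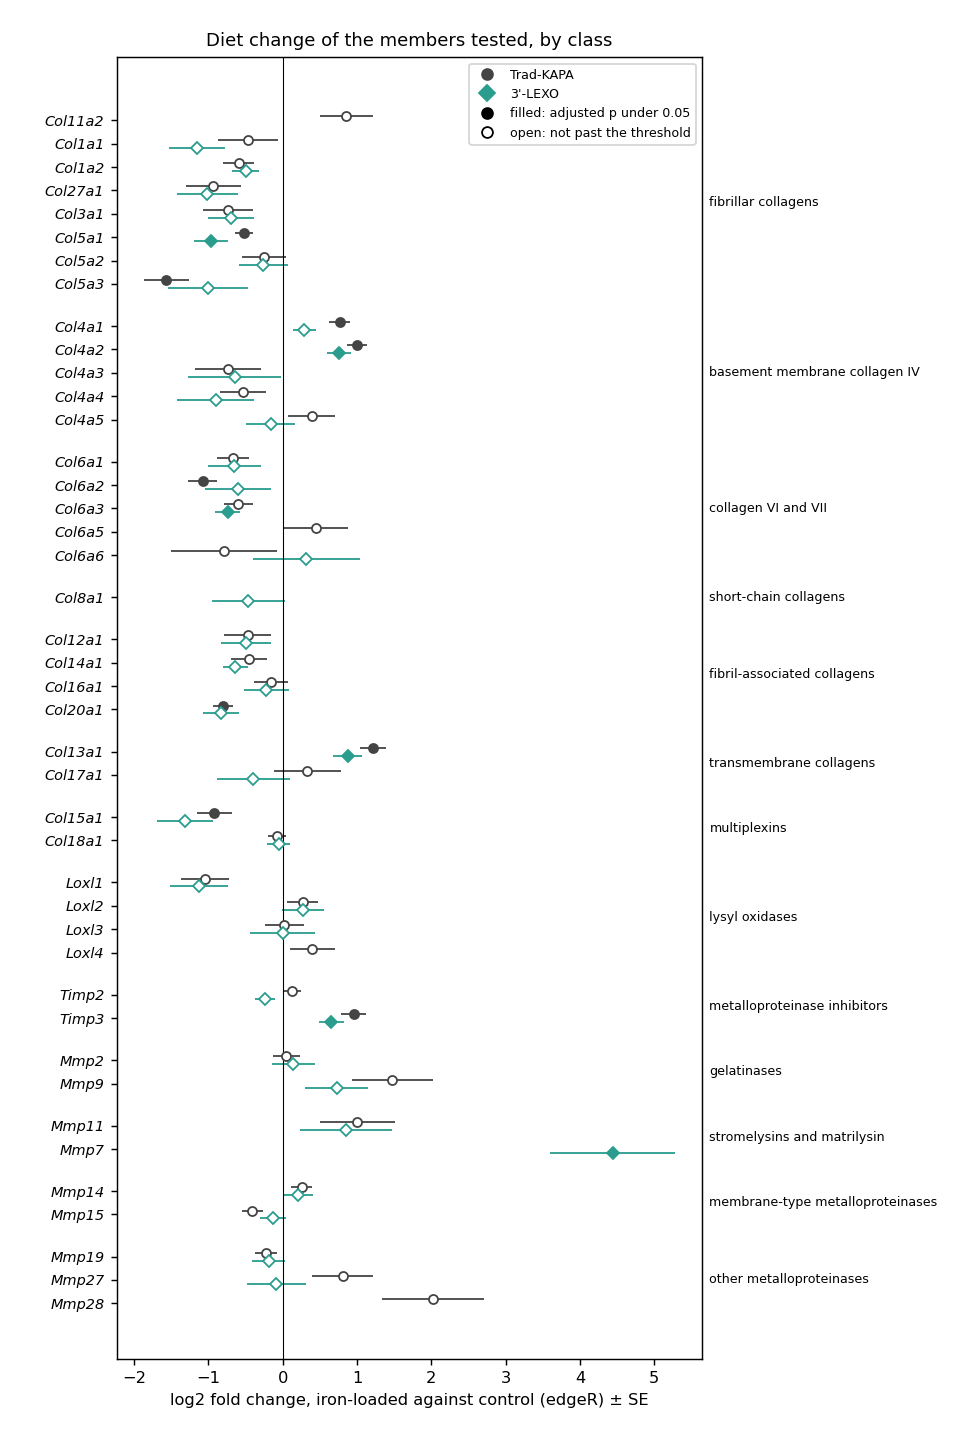
Log2 fold change of each tested gene on the horizontal axis (iron-loaded against control, edgeR, bars ± SE), with circles for Trad-KAPA and diamonds for 3'-LEXO, filled where the adjusted p was under 0.05. Of the collagens, 19 of 26 in Trad-KAPA and 21 of 25 in 3'-LEXO lie left of 0, while Col4a1, Col4a2, Col13a1 and Timp3 lie right of it in both kits, and Mmp7, tested in 3'-LEXO only, lies farthest right at 4.44.

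Among the tested collagens, 19 of 26 had a log2 fold change below 0 in Trad-KAPA, where 48.5% of all tested genes did, and 21 of 25 in 3'-LEXO, where 48.7% did. Their Trad-KAPA median was -0.50 and their 3'-LEXO median -0.60, beside medians of 0.02 and 0.01 over all tested genes. The counts of 19 and 21 were the same with DESeq2's size factors and with upper-quartile scaling.

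Of collagen IV, the collagen of basement membranes, the chains of the common form rose in Trad-KAPA and the other chains did not pass. The common form is made of the chains of Col4a1 and Col4a2. In Trad-KAPA, Col4a1 was at 70.3, 62.6 and 44.6 CPM in control mice 1, 2 and 3 and at 111, 101 and 104 CPM in iron-loaded mice 1, 2 and 3. All iron-loaded libraries were above all control libraries, and control mouse 3 was the lowest. The log2 fold change of Col4a1 was 0.77 ± 0.14 (SE, edgeR adjusted p = 0.0124). In 3'-LEXO it was at 26.4, 32.6 and 24.5 CPM in control mice and at 41.3, 32.8 and 32.2 CPM in iron-loaded mice, so the groups overlapped, and the log2 fold change of 0.29 ± 0.15 did not pass (edgeR adjusted p = 0.262).

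Col4a2 was at 52.3, 58.5 and 39.5 CPM in the control mice and at 108, 105 and 102 CPM in the iron-loaded mice in Trad-KAPA, a log2 fold change of 1.00 ± 0.13 (edgeR adjusted p = 0.00426). In 3'-LEXO it was at 10.3, 11.4 and 7.87 CPM against 17.6, 16.7 and 17.6 CPM, a log2 fold change of 0.76 ± 0.16 (edgeR adjusted p = 0.0293). The diet groups were apart in both kits. The 3'-LEXO call was lost without control replicate 1, 2 or 3 or iron-loaded replicate 2 or 3 (edgeR adjusted p = 0.0818, 0.0627, 0.111, 0.0531 and 0.0957, and 0.00705 to 0.111 over all 14 alternatives), whereas the Trad-KAPA calls of Col4a1 and Col4a2 held in each of the 14 alternative fits. The chains with a narrower distribution, Col4a3, Col4a4 and Col4a5, had log2 fold changes of -0.73 to 0.39 in Trad-KAPA and of -0.90 to -0.16 in 3'-LEXO, and none passed in either kit, while Col4a6 had at most 8 reads in a library.

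Col4a1 and Col4a2 lie head to head on chromosome 8. In GRCm38, Col4a1 spans 11198423 to 11312826 on the minus strand and Col4a2 spans 11312805 to 11449287 on the plus strand, so that the annotated 5' ends of their first exons share 22 bases. The RefSeq promoter windows of both genes (250 bases before the start and 50 from it) are printed because these 2 genes rose together in Trad-KAPA from 1 shared start region. Each is written 5′ to 3′ on the strand of its gene, and capitals mark matches to the GC box GGGCGG on either strand. The windows, chr8:11312555-11312854 (plus) and chr8:11312777-11313076 (minus), share 78 bases and 1 GC box.
Col4a2: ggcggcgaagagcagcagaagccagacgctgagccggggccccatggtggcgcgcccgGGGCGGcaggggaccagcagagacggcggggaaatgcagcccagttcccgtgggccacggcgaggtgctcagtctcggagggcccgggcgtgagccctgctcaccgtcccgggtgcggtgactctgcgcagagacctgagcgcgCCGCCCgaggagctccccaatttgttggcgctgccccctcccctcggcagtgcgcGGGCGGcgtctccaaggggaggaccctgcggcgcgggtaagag
Col4a1: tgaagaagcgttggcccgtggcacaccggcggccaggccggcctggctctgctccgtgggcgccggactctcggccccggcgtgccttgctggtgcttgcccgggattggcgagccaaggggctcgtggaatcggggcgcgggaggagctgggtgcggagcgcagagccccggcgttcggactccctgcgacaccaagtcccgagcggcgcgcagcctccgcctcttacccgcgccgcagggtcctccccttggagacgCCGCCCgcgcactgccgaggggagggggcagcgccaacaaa
The Col4a2 window held 3 GC boxes and the Col4a1 window 1. On either strand, neither held the letters searched for AP-1, which are TGANTCA, those for a TATA box, which are TATAAA, or those for SMAD proteins, which are CAGACA.

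Of collagen V, a minor fibrillar collagen that sits within collagen I fibrils, Col5a1 fell in both kits, Col5a3 in Trad-KAPA, and Col5a2 passed in neither. Col5a1 was at 26.3, 21.4 and 19.3 CPM in control and at 16.4, 16.1 and 16.5 CPM in iron-loaded mice in Trad-KAPA, and at 10.2, 7.73 and 9.08 CPM against 3.99, 5.97 and 4.55 CPM in 3'-LEXO. The groups did not overlap in either kit. The log2 fold change was -0.52 ± 0.13 in Trad-KAPA (edgeR adjusted p = 0.0276) and -0.96 ± 0.23 in 3'-LEXO (edgeR adjusted p = 0.0390). These calls were close to the threshold: in Trad-KAPA the call was lost without control replicate 1 or 2 or iron-loaded replicate 2 or 3 (edgeR adjusted p = 0.0841, 0.0671, 0.0731 and 0.0697), and in 3'-LEXO without control replicate 1, 2 or 3 or iron-loaded replicate 1 or 3 (edgeR adjusted p = 0.126, 0.0662, 0.121, 0.0571 and 0.105). Each of these calls held in some of the 14 alternatives, 9 in Trad-KAPA and 7 in 3'-LEXO. Col5a3 was at 4.41, 5.43 and 7.16 CPM in control and at 1.499, 1.776 and 2.731 CPM in iron-loaded mice in Trad-KAPA, the largest fall on the log2 scale among the genes of the list called there (log2 fold change -1.57 ± 0.30, edgeR adjusted p = 0.0140). In 3'-LEXO the groups of Col5a3 overlapped, at 2.36, 1.79 and 4.68 CPM against 0.537, 2.33 and 1.82 CPM (log2 fold change -1.003 ± 0.54, edgeR adjusted p = 0.276). Col5a2, the third chain gene, was at 6.77 ± 2.16 and 5.92 ± 1.86 CPM in Trad-KAPA and passed in neither kit.

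The Col5a1 promoter is printed as that of the chain called lower in both kits, at chr2:27886175-27886474 on the plus strand of GRCm38, with GC boxes and the SMAD letters in capitals.
Col5a1: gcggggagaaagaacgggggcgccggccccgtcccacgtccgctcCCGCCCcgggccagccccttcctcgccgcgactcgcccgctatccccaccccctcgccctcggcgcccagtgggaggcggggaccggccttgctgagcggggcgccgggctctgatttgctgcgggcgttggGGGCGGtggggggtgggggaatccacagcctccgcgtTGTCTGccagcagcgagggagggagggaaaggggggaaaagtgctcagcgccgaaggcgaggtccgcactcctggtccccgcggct
It held 2 GC boxes and 1 match to CAGACA or its reverse complement, which started 36 bases before the start site.

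The chains of collagens I and III, the main fibrillar collagens, varied widely among the control mice. Col1a1, a chain of collagen I, was at 12.7, 11.3 and 3.47 CPM in control and at 5.14, 7.45 and 8.12 CPM in iron-loaded mice in Trad-KAPA, and at 8.72, 12.4 and 3.97 CPM against 2.99, 5.31 and 3.36 CPM in 3'-LEXO. Control mouse 3 was the lowest control in both kits, and the groups overlapped in both. The same order held for Col3a1, at 57.1, 56.7 and 28.8 CPM in the control mice in Trad-KAPA and 24.5, 34.8 and 17.4 CPM in 3'-LEXO, with 16.4, 35.9 and 36.2 CPM and 9.36, 20.7 and 18.8 CPM in the iron-loaded mice. The log2 fold changes of Col1a1, Col1a2 and Col3a1 lay between -1.15 and -0.46 over both kits, and none passed by edgeR (adjusted p from 0.0812 to 0.45), while DESeq2 called Col1a1 in 3'-LEXO. The smooth muscle and myofibroblast markers Acta2, Tagln, Myh11, Cnn1 and Tpm2 likewise had their lowest sum in control mouse 3. It was 11.4 CPM by Trad-KAPA and 7.44 CPM by 3'-LEXO, where the highest control library had 34.1 and 25.2 CPM. This was not particular to them. Control mouse 3 was also the lowest control in both kits for portal fibroblast, sinusoidal endothelial, Kupffer cell, recruited macrophage, neutrophil and lymphocyte markers. Stellate cell markers had their lowest control sum there by Trad-KAPA (259 CPM) but their highest by 3'-LEXO (602 CPM). Mesothelial markers had their highest in both kits, and the cholangiocyte and hepatocyte sums were not lowest there in Trad-KAPA. The part of these cells in the collagen levels was not tested.

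Col27a1, a fibrillar collagen of developing cartilage, had the opposite order among controls. It was at 11.9, 21.3 and 31.4 CPM in control mice 1, 2 and 3 in Trad-KAPA and at 9.79, 21.1 and 34.5 CPM in 3'-LEXO, so that both kits put the same mice high and low. Iron-loaded mice were at 7.997, 13.1 and 14.4 CPM and at 7.82, 11.3 and 15.0 CPM. The groups overlapped in both kits through control mouse 1, and neither log2 fold change passed by edgeR (-0.93 ± 0.37 and -1.01 ± 0.42), while DESeq2 called Col27a1 in Trad-KAPA. Col1a1, Col3a1 and Col27a1 were singled out after their values were seen. Col11a2 had a log2 fold change of 0.85 ± 0.36 in Trad-KAPA and did not pass, and Col11a1 had at most 2 reads in a library.

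Collagen VI forms beaded filaments between the basement membrane and the interstitial fibres. Its chain gene Col6a2 was at 9.61, 8.24 and 6.14 CPM in control and at 3.57, 4.30 and 4.02 CPM in iron-loaded mice in Trad-KAPA, all iron-loaded libraries below all controls (log2 fold change -1.07 ± 0.20, edgeR adjusted p = 0.0120). In 3'-LEXO its libraries held 10 to 38 reads, and the groups overlapped at 1.62 ± 0.956 and 1.10 ± 0.233 CPM (log2 fold change -0.60 ± 0.44, edgeR adjusted p = 0.428, and a log2 fold change of -0.05 without control replicate 2, edgeR adjusted p = 0.960). Col6a3 was the chain called in 3'-LEXO, at 17.4, 14.5 and 13.0 CPM in control and 8.97, 9.60 and 9.45 CPM in iron-loaded mice (log2 fold change -0.74 ± 0.17, edgeR adjusted p = 0.0352). In Trad-KAPA, Col6a3 was at 14.3, 12.2 and 8.89 CPM against 9.71, 8.13 and 6.76 CPM, where control mouse 3 fell among the iron-loaded mice (log2 fold change -0.59 ± 0.19, edgeR adjusted p = 0.0643). The 3'-LEXO call of Col6a3 was lost without control replicate 1, 2 or 3 or iron-loaded replicate 2 or 3 (edgeR adjusted p = 0.112, 0.0788, 0.0774, 0.0548 and 0.0903) and held in 7 of the 14 alternatives. Col6a1 had log2 fold changes of -0.67 ± 0.21 and -0.65 ± 0.36 and passed in neither kit by edgeR, while DESeq2 called it in Trad-KAPA.

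The fibril-associated collagens coat fibrils rather than form them. Col20a1 was at 19.8, 20.8 and 14.9 CPM in control and at 11.996, 11.1 and 10.3 CPM in iron-loaded mice in Trad-KAPA (log2 fold change -0.80 ± 0.14, edgeR adjusted p = 0.0101), and this call held in each of the 14 alternative fits. In 3'-LEXO the groups of Col20a1 were also apart, at 4.64, 3.79 and 3.69 CPM against 2.76, 2.05 and 2.27 CPM, and the log2 fold change of -0.83 ± 0.24 did not pass (edgeR adjusted p = 0.0735). Col14a1, the most abundant of the class, was at 71.9 ± 24.2 CPM in control and 54.7 ± 9.66 CPM in iron-loaded mice in Trad-KAPA. In 3'-LEXO it was at 45.7, 49.3 and 36.5 CPM against 24.6, 31.1 and 32.0 CPM, groups that did not overlap, with a log2 fold change of -0.63 ± 0.17 (edgeR adjusted p = 0.0537), and DESeq2 called it there. Col12a1 and Col16a1 lay between -0.50 and -0.16 in both kits, and Col9a1, Col9a2 and Col22a1 had at most 3 reads in each library.

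Col13a1, a transmembrane collagen found at sites where cells adhere to the matrix, rose in both kits. It was at 8.16, 6.16 and 4.99 CPM in control and at 17.9, 15.0 and 14.2 CPM in iron-loaded mice in Trad-KAPA, and at 33.2, 20.1 and 22.1 CPM against 51.6, 49.8 and 42.5 CPM in 3'-LEXO. No iron-loaded library overlapped a control library in either kit. The log2 fold change of 1.21 ± 0.18 in Trad-KAPA (edgeR adjusted p = 0.00597) held in each of the 14 alternative fits. That of 0.87 ± 0.20 in 3'-LEXO (edgeR adjusted p = 0.0352) no longer passed without control replicate 2 or 3 or iron-loaded replicate 2 or 3 (edgeR adjusted p = 0.106, 0.131, 0.0644 and 0.0699) and held in 8 of the 14 alternatives. Its promoter window, printed as that of a gene called higher in both kits, lies at chr10:61979059-61979358 on the minus strand of GRCm38, and the capitals mark the TATA letters.
Col13a1: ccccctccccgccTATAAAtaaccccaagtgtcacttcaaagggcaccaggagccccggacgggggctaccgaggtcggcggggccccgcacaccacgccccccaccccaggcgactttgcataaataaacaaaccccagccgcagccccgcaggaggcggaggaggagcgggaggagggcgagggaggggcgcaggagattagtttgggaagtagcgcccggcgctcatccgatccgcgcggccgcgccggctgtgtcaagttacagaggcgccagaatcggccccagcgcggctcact
The TATAAA match started 237 bases before the start site, and the window held no GC box.

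Col15a1 and Col18a1 are the multiplexins, collagens of the basement membrane zone whose ends can be cut to release endostatin-like fragments. Col15a1 was at 15.7, 28.5 and 15.5 CPM in control and at 11.7, 10.04 and 11.4 CPM in iron-loaded mice in Trad-KAPA, with control mouse 2 high (log2 fold change -0.92 ± 0.23, edgeR adjusted p = 0.0314). Without control replicate 2 the log2 fold change was -0.58 (edgeR adjusted p = 0.0540), and the call was also lost without control replicate 3 or iron-loaded replicate 2 or 3 (edgeR adjusted p = 0.0523, 0.0806 and 0.0685), while it held in 9 of the 14 alternatives. In 3'-LEXO, Col15a1 was at 5.79, 10.5 and 3.90 CPM against 4.06, 2.05 and 2.18 CPM, again with control mouse 2 high, and did not pass (log2 fold change -1.32 ± 0.38, edgeR adjusted p = 0.0675), while DESeq2 called it. Col18a1 was the most abundant gene of the list and passed in neither kit. It was at 2213, 2034 and 2027 CPM in control and 2026, 2095 and 2114 CPM in iron-loaded mice in Trad-KAPA, and at 616, 597 and 503 CPM against 540.0, 599 and 579 CPM in 3'-LEXO. Its log2 fold changes of -0.08 ± 0.12 and -0.05 ± 0.15 were within their errors.

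**Figure D2:**
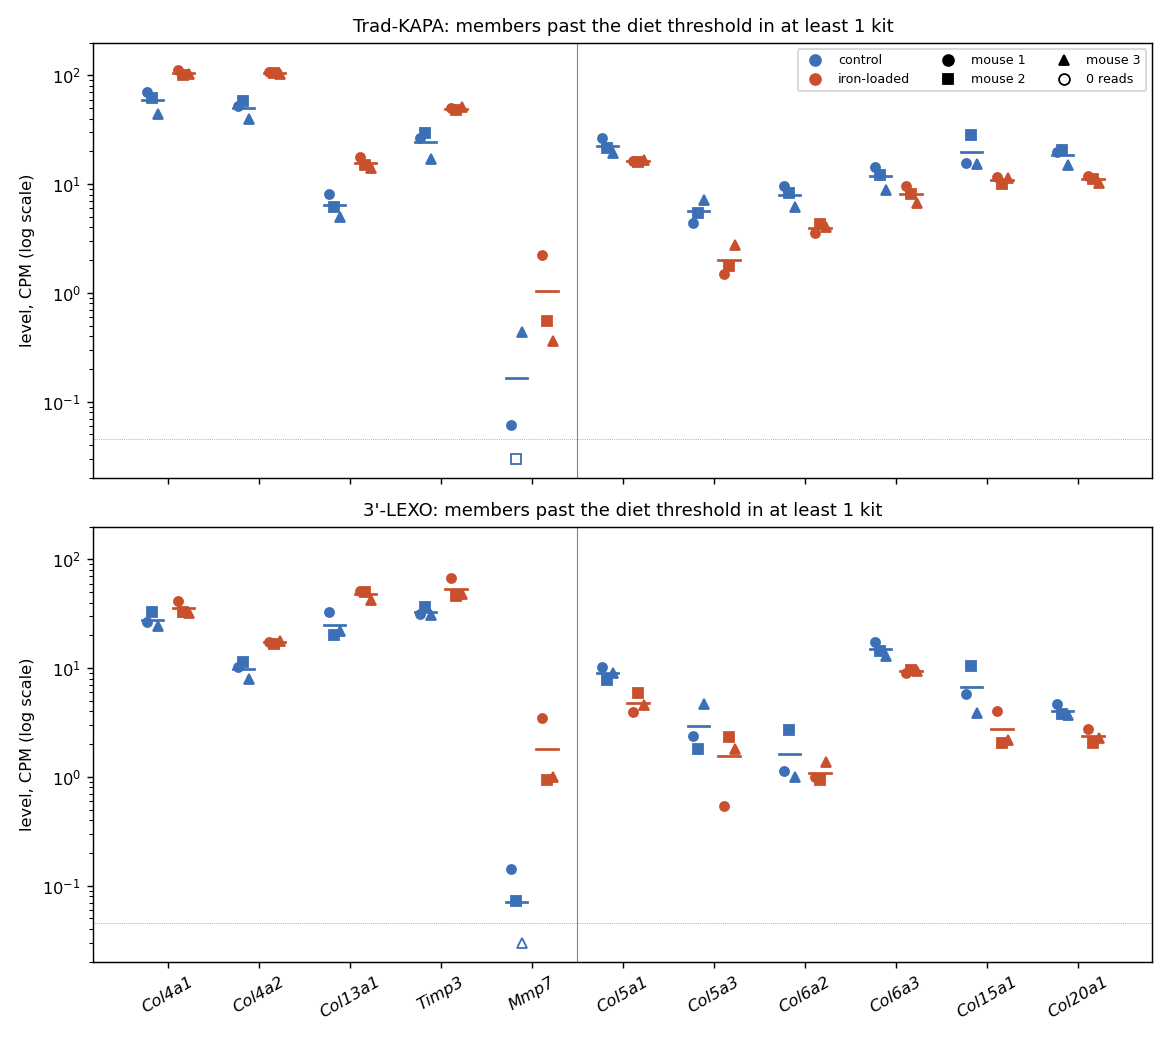
Level in CPM (log scale) of each gene called in at least 1 kit, in every library, with Trad-KAPA above and 3'-LEXO below, genes called higher left of the grey line and lower right of it. Blue marks control and orange iron-loaded libraries, the marker shape gives the mouse, lines are means of 3 libraries, and open markers at the bottom are libraries with 0 reads. The orange points of Col4a2, Col13a1 and Timp3 lie above all blue points in both panels, and those of Col5a1 below.

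Between genes, levels can be compared in Trad-KAPA per kb of merged exons and in 3'-LEXO as CPM, since 1 transcript gives about 1 fragment there. Merged exons can be much longer than the longest transcript, which can lower the level per kb. Mmp14 has 5960 merged bases against 3238 and Col14a1 7013 against 6457, so the order depends on the length used. In Trad-KAPA, Col18a1 had a mean of 296.9 CPM per kb over 6 libraries, followed by Mmp19 at 28.9, Mmp14 at 11.8, Col4a2 at 11.7 and Col4a1 at 11.0 CPM per kb. These means pool the diets, and Col4a1 and Col4a2 were higher on the iron-loaded diet. In control livers alone the order after Col18a1 and Mmp19 was Mmp14 at 10.4 ± 1.80, Col14a1 at 10.3 ± 3.45, Mmp15 at 9.25 ± 0.733, Timp2 at 8.20 ± 1.20, Col4a1 at 7.92 ± 1.76 and Col4a2 at 7.57 ± 1.47 CPM per kb, where each differed from the next by no more than the larger SD of the pair. In 3'-LEXO the order was Col18a1 with a mean of 572 CPM, Timp2 with 87.2, Mmp19 with 80.1, Mmp14 with 60.4 and Timp3 with 43.4 CPM, where each gene after Col18a1 overlapped the next between libraries. The multiplexins, nearly all Col18a1, made up 84.1% (Trad-KAPA) and 71.1% (3'-LEXO) of the summed collagen CPM of control livers, and the fibrillar collagens 5.47% and 11.1%.

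The summed fibrillar collagens were at 113 to 153 CPM in control and 72.8 to 103 CPM in iron-loaded mice in Trad-KAPA, and at 80.8 to 103 CPM against 41.8 to 63.4 CPM in 3'-LEXO, so the groups were apart in both kits. Summed collagen IV was at 92.2 to 139 CPM against 219 to 226 CPM in Trad-KAPA and at 35.9 to 50.3 CPM against 53.4 to 61.2 CPM in 3'-LEXO, in the opposite direction. The sum of all collagens other than Col18a1 overlapped in Trad-KAPA, at 319 to 475 and 419 to 452 CPM, and came to 213 to 266 against 204 to 223 CPM in 3'-LEXO. The sum of all collagens was 2514 ± 171 CPM in control and 2518 ± 65.2 CPM in iron-loaded mice in Trad-KAPA and 814 ± 84.7 and 787 ± 39.1 CPM in 3'-LEXO. The sums are led by their most abundant genes and were not tested.

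**Figure D3:**
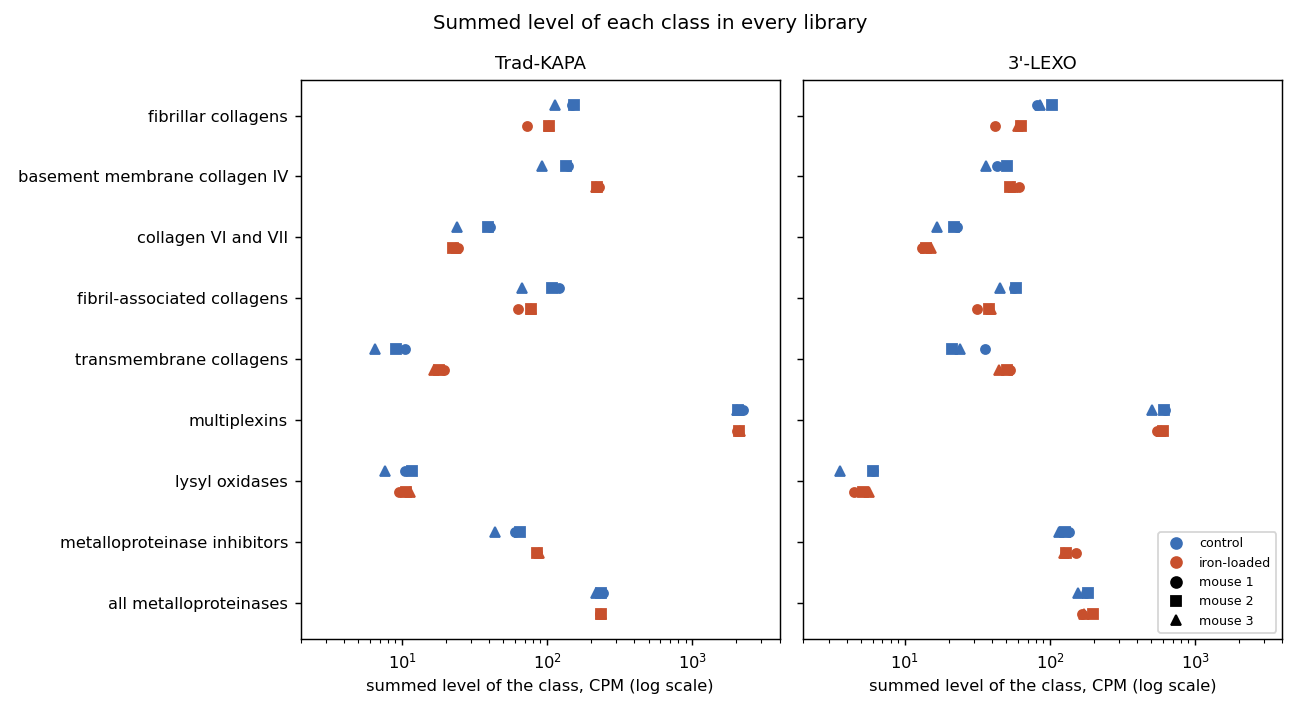
Summed level of each class in CPM (horizontal axis, log scale) in every library of Trad-KAPA (left) and 3'-LEXO (right), blue for control and orange for iron-loaded mice, with the marker shape for the mouse. Fibrillar collagens lie lower and collagen IV higher in the iron-loaded libraries of both kits, while the multiplexins, at 507 to 2229 CPM, overlap.

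Of the lysyl oxidases, 0 of 4 passed the threshold in Trad-KAPA and 0 of 3 in 3'-LEXO by edgeR, and 0 by DESeq2. Loxl1 alone had an unadjusted p under 0.05 (0.0122 and 0.0161 by edgeR's model). Loxl1, which acts on elastic fibres, was at 2.30, 3.48 and 1.73 CPM in control and at 1.21, 1.57 and 1.01 CPM in iron-loaded mice in Trad-KAPA, and at 1.86, 2.22 and 1.06 CPM against 0.690, 0.932 and 0.818 CPM in 3'-LEXO. Its groups did not overlap in either kit, and the log2 fold changes of -1.04 ± 0.33 and -1.12 ± 0.39 gave edgeR adjusted p = 0.0612 and 0.110. Loxl1 was singled out after its values were seen. Among tested genes, groups were apart in the lower direction for 7 genes of the list in Trad-KAPA, where this held for 16.6% of all tested genes, and for 6 in 3'-LEXO, where it held for 12.8%. In the higher direction the counts were 6, beside 24.7% of all tested genes, and 4, beside 18.5%. Mmp9 and Mmp28 among the 6 and Mmp7 among the 4 passed the read filter mainly through the iron-loaded group. Loxl2 and Loxl3 had log2 fold changes of at most 0.28 in both kits, Loxl4 was tested in Trad-KAPA alone, and Lox had at most 10 reads in a library.

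Timp3, the inhibitor that stays bound to the matrix, rose in both kits. It was at 26.4, 29.5 and 17.2 CPM in control and at 49.7, 47.7 and 50.7 CPM in iron-loaded mice in Trad-KAPA (log2 fold change 0.95 ± 0.17, edgeR adjusted p = 0.00988). In 3'-LEXO it was at 31.5, 36.4 and 30.6 CPM against 67.9, 45.8 and 48.1 CPM (log2 fold change 0.66 ± 0.16, edgeR adjusted p = 0.0466). All iron-loaded libraries were above all controls in both kits. The Trad-KAPA call held in each of the 14 alternative fits, while that of 3'-LEXO was lost without control replicate 1, 2 or 3 or iron-loaded replicate 1 or 3 (edgeR adjusted p = 0.147, 0.106, 0.144, 0.0580 and 0.0894) and held in 5 of the 14 alternatives. Exons of Syn3 on the opposite strand overlap 21.3% of the exon bases of Timp3, and whether the counting used strand is not given in the sources used here, so reads of the overlap cannot be told apart.

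The Timp3 promoter, printed as that of the inhibitor called higher in both kits, lies at chr10:86300162-86300461 on the plus strand of GRCm38, with GC boxes in capitals.
Timp3: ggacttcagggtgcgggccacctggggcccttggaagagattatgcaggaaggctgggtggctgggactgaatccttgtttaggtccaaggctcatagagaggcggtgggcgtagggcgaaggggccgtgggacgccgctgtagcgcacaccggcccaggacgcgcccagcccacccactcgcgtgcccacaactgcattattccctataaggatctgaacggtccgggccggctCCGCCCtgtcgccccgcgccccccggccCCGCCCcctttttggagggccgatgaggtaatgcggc
It held 2 GC boxes and no AP-1, TATAAA or CAGACA match.

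Timp2, the inhibitor that also helps to activate Mmp2, was at 33.6, 35.6 and 26.7 CPM in control and 35.1, 37.2 and 37.7 CPM in iron-loaded mice in Trad-KAPA. In 3'-LEXO it was at 103, 90.7 and 83.9 CPM against 83.4, 83.9 and 77.6 CPM. Its log2 fold change was 0.13 ± 0.12 in one kit and -0.24 ± 0.14 in the other, and passed in neither. Timp1, the soluble inhibitor that is used as a fibrosis marker, had 0 to 2 reads in each Trad-KAPA library and 1 to 6 reads in each 3'-LEXO library. Of these, 6 were in iron-loaded mouse 1. Timp4 had 1 read in all, in Trad-KAPA. A diet difference in either was not detectable at this depth.

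The metalloproteinases with many reads did not pass in either kit. In Trad-KAPA 0 of the 8 metalloproteinases tested passed by edgeR, with 3 at an unadjusted p under 0.05, and DESeq2 called Mmp28. Mmp19, a secreted enzyme, was at 108 ± 8.89 and 96.5 ± 14.8 CPM in Trad-KAPA and at 83.7 ± 8.73 and 76.4 ± 21.4 CPM in 3'-LEXO, lowest in iron-loaded mouse 1 in both kits at 79.6 and 55.2 CPM. Opposite-strand exons overlap 28.3% of its exon bases. Mmp14, the membrane-anchored enzyme that cuts fibrillar collagen and activates Mmp2, was at 62.2 ± 10.7 and 78.0 ± 12.1 CPM in Trad-KAPA and at 55.1 ± 18.2 and 65.7 ± 7.57 CPM in 3'-LEXO. Its log2 fold changes were 0.26 ± 0.14 and 0.20 ± 0.20. Mmp15, another membrane-anchored enzyme, was at 50.9, 53.2 and 45.5 CPM against 32.4, 43.9 and 41.6 CPM in Trad-KAPA without overlap (log2 fold change -0.41 ± 0.14, edgeR adjusted p = 0.0833), and overlapped in 3'-LEXO. Mmp2, a gelatinase of mesenchymal cells, had log2 fold changes of 0.05 ± 0.18 and 0.15 ± 0.29.

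Among the metalloproteinases with few reads, several stood out in single mice. Mmp7, or matrilysin, an enzyme of epithelia that is known from injured bile ducts, had 2, 1 and 0 reads in control and 45, 10 and 11 reads in iron-loaded mice in 3'-LEXO. All iron-loaded libraries were above all controls, with mouse 1 highest, and the log2 fold change was 4.44 ± 0.84 (edgeR adjusted p = 0.0182). The control group was at the floor of 3 reads in each library, so the fitted fold depends on the prior count, and Mmp7 passed the read filter only through the iron-loaded group. The call was lost without control replicate 1, 2 or 3 (edgeR adjusted p = 0.0532, 0.0804 and 0.0746) and held in 10 of 13 alternatives. In Trad-KAPA, where Mmp7 was not tested, it had 1, 0 and 6 reads against 31, 8 and 5 reads. Iron-loaded mouse 1 was again highest, and control mouse 3 exceeded iron-loaded mouse 3. Exons of a gene on the opposite strand overlap 11.5% of its exon bases. Of the 5 cholangiocyte markers, 0 of 2 tested passed in Trad-KAPA and 0 of 3 in 3'-LEXO by edgeR, with 1 and 2 at an unadjusted p under 0.05 and 0 calls by DESeq2 in either kit. They summed to 6.10 to 6.56 CPM in control and 4.71 to 5.89 CPM in iron-loaded mice in Trad-KAPA and to 12.5 to 16.4 against 10.9 to 12.3 CPM in 3'-LEXO. The part of these cells in the Mmp7 reads was not tested.

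The Mmp7 promoter is printed as that of the 1 metalloproteinase called, at chr9:7691840-7692139 on the plus strand of GRCm38, with the AP-1 letters TGANTCA and the TATA letters in capitals.
Mmp7: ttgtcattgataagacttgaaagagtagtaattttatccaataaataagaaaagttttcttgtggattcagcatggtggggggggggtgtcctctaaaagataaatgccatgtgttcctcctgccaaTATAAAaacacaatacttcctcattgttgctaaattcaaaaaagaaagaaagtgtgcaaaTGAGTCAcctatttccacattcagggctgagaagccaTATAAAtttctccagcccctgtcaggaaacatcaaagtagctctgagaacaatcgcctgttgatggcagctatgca
The AP-1 match began 63 bases and the TATAAA matches 123 and 26 bases before the start site, without overlap between them. Over the 54 windows of the 49 genes that had one, AP-1 letters were in 3 (Col6a1, Mmp7 and Mmp13), beside 7.81% of all 32851 windows. GC boxes were in 33, beside 35.7%, TATAAA in 8, beside 13.6%, and CAGACA in 12, where 6913 of all windows held it. A match describes letters and says nothing of binding.

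Mmp28, or epilysin, which epithelia and macrophages make, had 11, 7 and 4 reads in control and 62, 14 and 13 reads in iron-loaded mice in Trad-KAPA. It passed the read filter there only through the iron-loaded group. The groups were apart, with iron-loaded mouse 1 far above the rest, and the log2 fold change of 2.02 ± 0.69 did not pass (edgeR adjusted p = 0.0751). Without iron-loaded replicate 1 it was 0.93 (edgeR adjusted p = 0.181, and 0.00744 to 0.200 over all 13 alternatives). In 3'-LEXO, Mmp28 had 0, 0 and 1 reads in control and 5, 2 and 0 reads in iron-loaded mice and was not tested. Opposite-strand exons overlap 12.03% of its exon bases. Mmp11, or stromelysin-3, showed the same mouse, with 80, 35 and 16 reads in iron-loaded mice in Trad-KAPA and 78, 12 and 10 reads in 3'-LEXO, where the controls had 15 to 28 and 19 to 21 reads. In 3'-LEXO the other iron-loaded mice lay below all controls.

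The neutrophil collagenase Mmp8 and the interstitial collagenase Mmp13 were too low to be tested, so their reads are given without a call. Mmp8 had 2, 0 and 0 reads in control and 10, 6 and 7 reads in iron-loaded mice in Trad-KAPA, and 5, 0 and 0 reads against 11, 7 and 4 reads in 3'-LEXO. Mmp13 had 1, 1 and 1 reads against 5, 9 and 9 reads in Trad-KAPA, and 2, 0 and 0 reads against 7, 8 and 5 reads in 3'-LEXO. On the CPM scale the groups of both genes were apart in both kits, which read the same livers. In reads, however, Mmp8 had 5 in control mouse 1 and 4 in iron-loaded mouse 3 of 3'-LEXO. How often other untested genes were apart was not counted. Mmp9, the gelatinase of myeloid cells, had 15, 8 and 1 reads against 20, 26 and 19 reads in Trad-KAPA (log2 fold change 1.48 ± 0.54, edgeR adjusted p = 0.0930) and overlapped in 3'-LEXO (log2 fold change 0.73 ± 0.42, edgeR adjusted p = 0.312). Mmp9 passed the read filter of Trad-KAPA mainly through the iron-loaded group. Mmp25, a leukocyte enzyme, had 0 reads in the controls and 4 reads in each iron-loaded library in Trad-KAPA, but 1 read in all of 3'-LEXO. Mmp8, Mmp9, Mmp11, Mmp13 and Mmp25 were singled out after their values were seen.

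**Figure D4:**
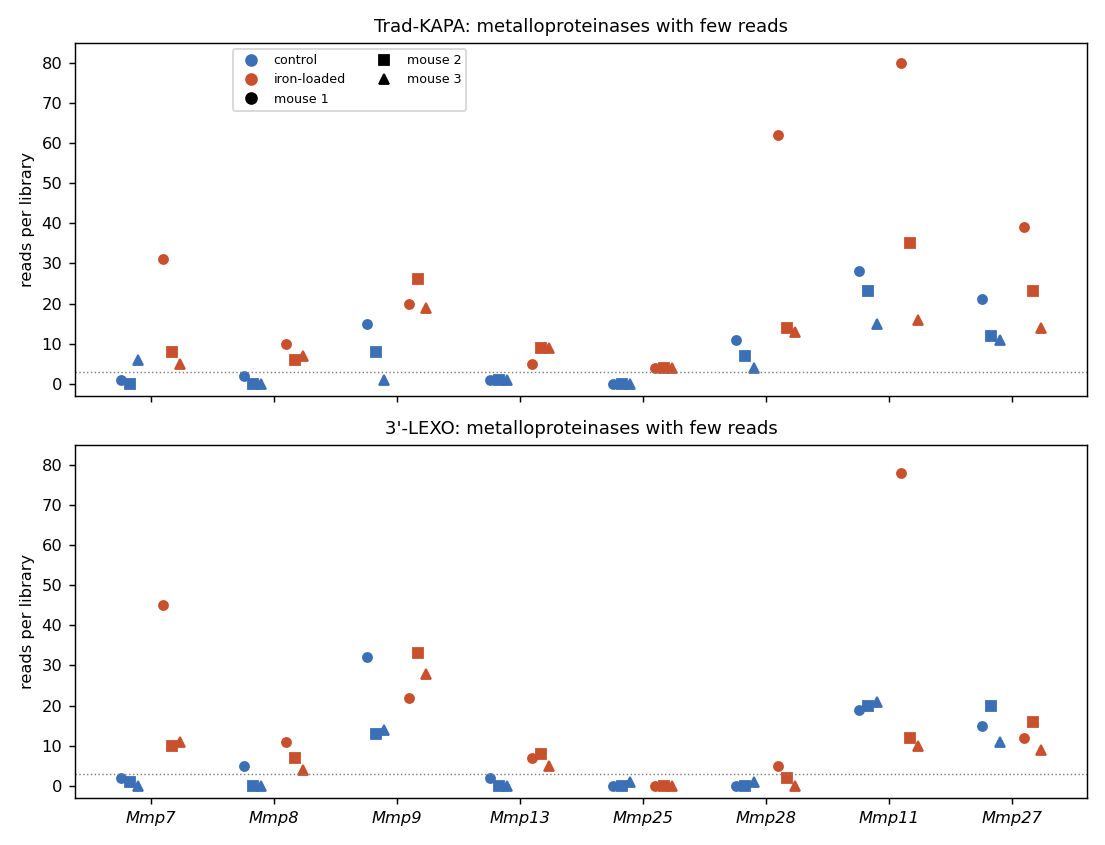
Reads per library (linear axis) of 8 metalloproteinases with few reads in Trad-KAPA (above) and 3'-LEXO (below), blue for control and orange for iron-loaded mice, with the marker shape for the mouse and a dotted line at 3 reads. Iron-loaded mouse 1 (orange circle) stands above the other mice for Mmp7 and Mmp11 in both kits and for Mmp28 in Trad-KAPA, and the orange points of Mmp13 lie above the blue ones in both kits.

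Some of these enzymes are known from myeloid cells, whose markers were therefore read in the same libraries. Of the 6 neutrophil markers, 2 were tested in Trad-KAPA and 3 in 3'-LEXO. S100a8 and S100a9 were higher in both kits (edgeR adjusted p = 0.0336 and 0.00847 for Trad-KAPA, 0.0282 and 0.0143 for 3'-LEXO), beside 2.67% of all genes tested in both. The list of 6 summed to 1.45 to 3.26 CPM in control and 3.78 to 9.42 CPM in iron-loaded mice in Trad-KAPA and to 8.44 to 19.6 against 25.5 to 63.4 CPM in 3'-LEXO. Of the markers of recruited macrophages, 4 of 6 tested were higher in Trad-KAPA (Gpnmb, Trem2, Itgax and Lgals3), beside 8.77% of all tested genes. In 3'-LEXO 2 of 5 tested were (Gpnmb and Lgals3), beside 3.17%. The list summed to 19.2 to 26.3 against 45.9 to 59.5 CPM in Trad-KAPA and to 17.2 to 25.5 against 37.5 to 53.3 CPM in 3'-LEXO. The part of these cells in the metalloproteinase reads was not tested.

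Of the 10 stellate cell markers, Des and Ngfr were lower in Trad-KAPA, where 8.37% of all tested genes were called lower, and 0 of 9 passed in 3'-LEXO by edgeR (3 at an unadjusted p under 0.05, and 1, Ngfr, by DESeq2), with sums of 259 to 354 CPM in control and 276 to 314 CPM in iron-loaded mice in Trad-KAPA and of 427 to 602 against 432 to 470 CPM in 3'-LEXO. Of the 5 myofibroblast and the 5 portal fibroblast markers, 0 passed in either kit by edgeR or DESeq2, with 1 at an unadjusted p under 0.05, a portal fibroblast marker in Trad-KAPA. The myofibroblast sums were 11.4 to 34.1 against 16.7 to 20.6 CPM in Trad-KAPA and 7.44 to 25.2 against 9.13 to 17.6 CPM in 3'-LEXO, and those of portal fibroblasts were 8.75 to 15.8 against 12.3 to 13.0 CPM and 11.2 to 14.2 against 11.9 to 13.4 CPM. Of the 6 sinusoidal endothelial markers, Lyve1 and Stab1 were higher in Trad-KAPA, while in 3'-LEXO Lyve1 was higher and Stab2 and Fcgr2b were lower, beside 17.1% and 6.10% of all tested genes called. Their sums were 301 to 382 against 351 to 424 CPM and 219 to 259 against 180 to 204 CPM. Of the 5 Kupffer cell markers, Vsig4 and Marco were higher in Trad-KAPA and Marco in 3'-LEXO, beside 8.77% and 3.17% of all tested genes. Their sums were 288 to 448 against 517 to 561 CPM and 816 to 1062 against 1076 to 1313 CPM. Of the lymphocyte and hepatocyte markers, 0 passed in either kit by edgeR or DESeq2, with 1 at an unadjusted p under 0.05, a hepatocyte marker in 3'-LEXO. Of the 4 mesothelial markers, edgeR tested 0 in Trad-KAPA and 1 in 3'-LEXO, which did not pass (log2 fold change -1.56), and DESeq2 called 0. The mesothelial sums were 0.846 to 2.10 against 0.888 to 1.29 CPM in Trad-KAPA and 2.21 to 3.05 against 1.21 to 1.73 CPM in 3'-LEXO. The part of all these cells in the collagen results was not tested.

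Whether diet acted differently in the kits was examined with an interaction term in a fit of the 12 libraries together. None of the 42 genes passed, and 0 of the 14384 genes tested did (edgeR adjusted p). Before adjustment, 2 genes of the list lay under 0.05, Col4a1 at 0.0377 and Timp2 at 0.0464 in edgeR's model, where 2.79% of all genes did. DESeq2 also called 0 genes of the list, and with the mouse as a block edgeR called 0 of them and 5 of all genes. Only the fit with the mouse as a block paired the 2 libraries of a mouse. In it, 4 genes of the list lay under 0.05 before adjustment, Col5a1, Col4a1, Col1a1 and Timp2. Their lowest edgeR adjusted p was 0.412, for Col4a1, and the share of all genes under 0.05 was not counted for that fit. A call in 1 kit alone, as for Col5a3, Col6a2, Col15a1 and Col20a1 in Trad-KAPA or Col6a3 in 3'-LEXO, is therefore not shown to differ between the kits.

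The kits gave different levels for the same RNA. Of the 36 genes tested in both, 21 had a higher CPM in Trad-KAPA in 6 of 6 mice, where 38.1% of all genes tested in both did, and 3 had a higher CPM in 3'-LEXO in 6 of 6 mice, where 37.1% did. The 3 were Col13a1, Timp2 and Mmp9, with median 3'-LEXO to Trad-KAPA ratios of 3.30, 2.46 and 1.80. At the other end were Col4a3 at 0.175 and Col4a2 at 0.184, so that Col4a2 had 546 to 1535 reads in a Trad-KAPA library and 111 to 229 reads in a 3'-LEXO library.

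Of 24 listed genes whose products fold and modify collagen, 20 were tested in Trad-KAPA, of which 2 were higher and 2 lower (17.1% of all tested genes were called), and 18 in 3'-LEXO, of which 1 was lower (6.10%). Colgalt2, a glycosyltransferase of collagen, fell in both kits, from 2.64 ± 0.306 to 0.987 ± 0.0271 CPM in Trad-KAPA (log2 fold change -1.48 ± 0.25, edgeR adjusted p = 0.00932) and from 6.35 ± 0.239 to 2.13 ± 0.628 CPM in 3'-LEXO (log2 fold change -1.63 ± 0.26, edgeR adjusted p = 0.00819). Serpinh1, the chaperone of procollagen, fell in Trad-KAPA from 11.5 ± 3.51 to 6.45 ± 1.65 CPM (log2 fold change -0.90 ± 0.26, edgeR adjusted p = 0.0486) and was at 9.01 ± 0.327 and 5.95 ± 1.51 CPM in 3'-LEXO (edgeR adjusted p = 0.110). P4hb and Ppib, which also serve the folding of other secreted proteins, rose in Trad-KAPA by 0.47 ± 0.13 and 0.45 ± 0.11 on the log2 scale (edgeR adjusted p = 0.0387 and 0.0293) and did not pass in 3'-LEXO.

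Among 44 other matrix proteins, 36 were tested in Trad-KAPA, of which 3 were called (17.1% of all tested genes), and 30 in 3'-LEXO. In Trad-KAPA, Lama5, a laminin chain, rose from 5.73 ± 0.901 to 16.9 ± 2.07 CPM (log2 fold change 1.48 ± 0.15, edgeR adjusted p = 0.00164), and Nid1, which links laminin to collagen IV, rose from 27.8 ± 6.67 to 50.6 ± 5.53 CPM (0.80 ± 0.17, edgeR adjusted p = 0.0203). Agrn, a proteoglycan of basement membranes, fell from 74.3 ± 2.11 to 53.0 ± 2.46 CPM (-0.56 ± 0.09, edgeR adjusted p = 0.00851). All 3 had separate groups in the same direction in 3'-LEXO, at log2 fold changes of 0.91 ± 0.26, 0.59 ± 0.20 and -0.60 ± 0.19, and none passed there (edgeR adjusted p = 0.0718, 0.0991 and 0.0913). In 3'-LEXO 0 of the 30 passed by edgeR or DESeq2, with 8 at an unadjusted p under 0.05. The median log2 fold change over this list was -0.07 (Trad-KAPA) and -0.24 (3'-LEXO).

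Of the receptors that bind collagen, 4 of 8 tested were higher in Trad-KAPA, beside 8.77% of all tested genes, and 1 of 6 in 3'-LEXO, beside 3.17%. Ddr1, the receptor kinase for collagen on epithelial cells, rose in both, from 1.64 ± 0.154 to 6.05 ± 1.19 CPM in Trad-KAPA (log2 fold change 1.81 ± 0.21, edgeR adjusted p = 0.00312) and from 6.63 ± 0.604 to 18.7 ± 3.26 CPM in 3'-LEXO (1.44 ± 0.19, edgeR adjusted p = 0.00387). The integrin chain Itga1, the inhibitory receptor Lair1 and the endocytic receptor Mrc1 rose in Trad-KAPA by 0.76 ± 0.10, 0.88 ± 0.23 and 0.58 ± 0.14 on the log2 scale. Mrc1 was level in 3'-LEXO at 112 ± 10.1 and 110 ± 13.4 CPM.

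Of 24 other proteases and inhibitors, 20 were tested in Trad-KAPA, of which 3 were higher and 3 lower (8.77% and 8.37% of all tested genes), and 17 in 3'-LEXO, of which 2 were lower (2.92%). Htra1, a secreted serine protease, fell in Trad-KAPA by 1.74 ± 0.35 and in 3'-LEXO by 1.75 ± 0.39 on the log2 scale (edgeR adjusted p = 0.0156 and 0.0319). Tfpi2, an inhibitor of serine proteases in the matrix, fell by 0.66 ± 0.14 and 0.83 ± 0.17 (edgeR adjusted p = 0.0207 and 0.0225). Reck, a membrane inhibitor of metalloproteinases, fell in Trad-KAPA by 1.02 ± 0.22 (edgeR adjusted p = 0.0205) and was at -1.06 ± 0.40 in 3'-LEXO (edgeR adjusted p = 0.138). The urokinase receptor Plaur and the protease Adam8 rose in Trad-KAPA by 1.68 ± 0.31 and 1.91 ± 0.52.

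Of 28 genes of TGF-beta, BMP and PDGF signalling, 27 were tested in Trad-KAPA, of which 9 were higher and 1 lower (8.77% and 8.37% of all tested genes), and 24 in 3'-LEXO, of which 3 were higher (3.17%). The 9 include Bmp6 and Smad7, which the paper groups under iron metabolism. The TGF-beta receptor chain Tgfbr1 rose by 1.05 ± 0.11 (Trad-KAPA) and 0.80 ± 0.19 (3'-LEXO) on the log2 scale, and the feedback inhibitors Smad7 and Skil by 1.88 ± 0.36 and 1.34 ± 0.14 in Trad-KAPA and by 1.58 ± 0.39 and 0.88 ± 0.20 in 3'-LEXO. Bmp6, the ligand through which the liver senses iron, rose from 3.37 ± 0.488 to 19.0 ± 2.64 CPM in Trad-KAPA (log2 fold change 2.42 ± 0.17, edgeR adjusted p = 0.000505). In 3'-LEXO it did not pass the read filter used here, whereas the paper reports an increase of Bmp6 in that kit too. Ccn2, a matrix protein induced by TGF-beta, rose in Trad-KAPA by 1.29 ± 0.26 (edgeR adjusted p = 0.0164) and was at 1.10 ± 0.45 in 3'-LEXO (edgeR adjusted p = 0.167).

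The genes that were tested in neither kit numbered 24. Those with at most 3 reads in each library of a kit were 12 in each, and 11 of these were the same in both: Col6a4, Col8a2, Col9a1, Col9a2, Col11a1, Col22a1, Col26a1, Col28a1, Mmp16, Mmp21 and Timp4. Another 11 of the 24 had some libraries over 3 reads in at least 1 kit and at most 13 reads in any library, namely Col4a6, Col7a1, Col9a3, Col23a1, Col24a1, Col25a1, Lox, Mmp17, Mmp23, Timp1 and Mmp25, and the remaining 2 are Mmp8 and Mmp13, given above.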

How the data were processed

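The deposited file is 1 table of raw read counts per gene for 12 libraries. The authors aligned the reads with STAR 2.5.3a to mm10 (GRCm38), per the submitters' processing notes, and the counting program and its use of strand are not given in the sources used here. Gene symbols, exon lengths and overlaps came from GENCODE M21. The genes, companion lists and marker lists were chosen with earlier results of these data known.

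Levels are CPM, counts scaled to a library total of 1000000 over all counted reads, which numbered 10724672 to 16553616 per library. The SD and SE values include the spread between mice, while the floor of 3 reads per library covers counting error only. Within each kit, 3 iron-loaded were compared with 3 control libraries by edgeR 4.0.16 (limma 3.58.1, R 4.3.3) with filterByExpr, TMM scaling and the quasi-likelihood test, Benjamini-Hochberg adjusted over all tested genes, threshold 0.05. The SE of an edgeR log2 fold change was derived as its absolute value divided by the square root of the F statistic of that test. The diet by kit interaction used all 12 libraries in 1 fit. Named are genes called in at least 1 kit, the 5 most abundant per kit, Mmp28, and up to 6 genes of each companion list, with those called in both kits first. All other genes with values were named after their values were seen.

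Libraries with the same number were taken as the same mouse in both kits (correlation of deviations 0.421 to 0.756 over 10326 genes with a mean of at least 50 counts), while numbers across diets name different mice. Each Trad-KAPA library matched its own number best except iron-loaded 2. That library was closest to 3'-LEXO iron-loaded 3 and correlated at 0.497 with its own number. In all 38 alternatives were planned and 2 added after the data were seen, among them DESeq2 1.42.0, other scalings and filters, drawing to 10000000 counts, and leaving out each library. The scripts were tested on simulated data. Promoter windows came from RefSeq (GRCm38.p6). Protein sequences were not used here. The values of 1 gene of the companion lists are not reported here. Tables and figures were made with Python 3.11.15, pandas 2.3.3, numpy 2.4.6 and matplotlib 3.10.9.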

Additional observations from a re-analysis of the deposited data

How the results depend on the processing

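None of the 11 collagen, inhibitor and metalloproteinase genes called in at least 1 kit changed direction under any alternative run, while genes of the companion and marker lists were not followed through the alternatives. In Trad-KAPA the 9 calls became 21 (10 higher, 11 lower) without a read filter, and the lower calls became 8 with the replicate block and 3 with the closely alike iron-loaded mice 2 and 3 summed to 1 sample, an alternative added after the data were seen. In 3'-LEXO the 6 calls became 13 (8 lower) without a filter, 1 (1 higher, 0 lower) with the replicate block and 1 (1 higher, 0 lower) with mice 2 and 3 summed, and the lower calls became 5 by DESeq2. With 1 library left out, Trad-KAPA gave 7 to 10 calls (4 higher each time, 3 to 6 lower) and 3'-LEXO 0 to 5 (0 to 3 higher, 0 to 2 lower). The interaction gave 0 under each alternative. Replicate numbers name different mice on the 2 diets (correlation of deviations -0.157 to 0.0872), so the replicate block pairs nothing by design. Fewer samples enter the summed and left-out fits, and for the other settings the cause was not tested. Of the Trad-KAPA calls, Col4a1, Col4a2, Col13a1, Timp3, Col5a3, Col6a2 and Col20a1 held in all 14 alternatives. At this depth 12 genes in each kit had at most 3 reads in each library, and for these a difference was not detectable.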
